A study of Mus musculus with 13 samples.

Results

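Spinal cord astrocytes of mice at postnatal day 9 (P9) were compared with those at postnatal day 12 (P12), to ask which transcripts differ over these days of maturation. All 7 astrocyte libraries of the series entered the comparison, out of 13 libraries in all; the remainder are microglia, every one taken at P12. At P9 there were 2 libraries, 1 from Il33 knockout (KO) mice and 1 from wild-type (WT) littermates. At P12 there were 5 libraries, of which 3 were KO and 2 were WT. Of 39171 genes in the deposited table, 13397 had a mean of at least 1 FPKM (fragments per kilobase of transcript, scaled to the mapped fragments of the library) over the 7 libraries and were tested.

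All mice were on the C57BL/6 strain, and the astrocytes were sorted by flow cytometry for green fluorescent protein under the control of Aldh1l1, a folate enzyme gene that marks astrocytes. The KO mice lack Il33, which encodes a cytokine released by glia, and the WT mice carry the same reporter. The series' design text calls the libraries biological replicates. The sources used here do not say whether a library is 1 animal or a pool, nor which litter or day of sorting it came from. Age and day of sorting therefore cannot be told apart. P-values measure the spread between these libraries.

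Astrocytes of the rodent spinal cord are born before birth, divide locally in the first days of life, and then leave the cell cycle while they take up adult tasks. Those tasks include clearing glutamate and glycine from synapses, buffering the potassium that neurons release, wrapping blood vessels with endfeet rich in water channels, and secreting or engulfing material at synapses. Genes of neural progenitors, such as Fabp7, Vim and Tnc, are known to decline as these cells mature.

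The sorted cells carried astrocyte markers at high levels at both ages, and the knockout was visible in every library. Il33 stood at 2.05 FPKM in the P9 KO library and at 2.28, 0.424 and 0.733 in the P12 KO libraries. It stood at 108 FPKM in the P9 WT library and at 96.3 and 113 in the P12 WT libraries. KO and WT thus did not overlap, while the ages did (log2 difference between the ages −0.35, SE 0.38, limma with Benjamini-Hochberg adjustment, adjusted p = 0.88). Aldh1l1, the gene of the reporter, lay between 78.4 and 104 FPKM with overlapping ages (log2 difference −0.10, SE 0.19). Slc1a3, a glutamate transporter of astrocytes, lay between 286 and 510 FPKM, and its ages overlapped too. Slc1a2, the main glutamate transporter of astrocytes, was listed at 0 in P12 KO library 2 and P12 WT library 1 and stood at 1631 to 3996 FPKM in the other libraries. An exact 0 in this table can therefore be a failed estimate rather than the lack of a transcript, and no fold is given against it.

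Only 13 of the 13397 genes tested (0.097%) passed an adjusted p of 0.05 in the age comparison, with genotype as a covariate. Of these, 7 (0.0523%) were higher at P12 and 6 (0.0448%) were lower. The median log2 difference of all genes tested was 0.02. Without adjustment, 656 genes (4.9%) were higher and 498 (3.72%) lower at p under 0.05. In 1108 genes (8.27%) all 5 P12 libraries lay above both P9 libraries, and in 863 genes (6.44%) all 5 lay below. Among the 11554 protein-coding genes these shares were 8.72% and 6.8%. Counts of tested list members without overlap, given below, are to be read against the shares of all genes. Differences were also simulated in this design, in protein-coding genes with a mean of at least 5 FPKM and with independent normal noise. Of such genes, 11.2% were called at a difference of 1 log2 unit, 46% at 2 units and 79.6% at 3 units. Most moderate differences in them could thus not be called with 2 libraries at P9. No difference was simulated in lower or non-coding genes.

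Relative depth was estimated from the steps of the lowest FPKM values, in percent of the deepest library. It was 94.5% (KO) and 84.6% (WT) at P9. At P12 it was 71.6%, 100% and 61.7% in the KO and 76.5% and 53.2% in the WT libraries. Both P9 libraries thus lay above all P12 libraries except P12 KO library 2. Each estimate is the most common ratio to P12 KO library 1, held by only 2.72% to 5.92% of the low genes compared, so it is rough. P12 WT library 2 was the shallowest by this estimate and had the largest sum of FPKM. The sums did not overlap between the ages, at 1.683e+06 and 2.028e+06 at P9 and 2.275e+06 to 3.837e+06 at P12. Values under another scaling, quantile normalisation, are given below for some lists and genes only. The part of scaling in the other differences was not tested. A single gene model, unnamed in the annotation used here, took 26.6% to 38.9% of each library's summed FPKM. Y-linked transcripts were present in both P9 libraries, in P12 KO library 1 and in P12 WT library 1. They were at or near 0 in the other P12 libraries, so age and sex are partly mixed in this comparison. Of the libraries with Y-linked transcripts, P9 WT also held 4.10 FPKM of Xist, a transcript of the inactive X chromosome, against 0.133 to 0.370 in the others. The sex of the animals behind that library was not tested. Values from the 4 libraries with Y-linked transcripts alone are given for the 6 called protein-coding genes.

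All 6 protein-coding genes that passed the test rose, and a pair of them encode potassium channels of astrocytes. Kcnj10 (chr1:172341210-172374085, plus strand, GRCm38) encodes the inwardly rectifying channel that takes up potassium at astrocyte processes. It stood at 482 FPKM in the KO and 583 in the WT library at P9. At P12 it stood at 1371, 1513 and 1303 in the KO and at 1514 and 1715 in the WT libraries. The ages did not overlap, and Kcnj10 rose 2.79-fold between the means (log2 difference 1.499, SE 0.14, limma adjusted p = 0.0198). Kcnk1 (chr8:125995170-126030685, plus strand) encodes a background potassium channel. It rose from 49.5 and 47.5 FPKM at P9 to 155, 152 and 128 in the KO and 144.5 and 133 in the WT libraries at P12. That is a 2.94-fold change (log2 difference 1.53, SE 0.16, limma adjusted p = 0.0351), and the 2 P9 libraries were closer to each other than any of the P12 libraries were to them.

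Cntn1 (chr15:92051165-92341967, plus strand) encodes contactin, an adhesion protein held at the cell surface by a lipid anchor and known at contacts between axons and glia. Its 2 P9 libraries stood at 41.3 and 39.9 FPKM, and the P12 libraries at 175, 180 and 141 (KO) and 193 and 158 (WT). It had the smallest p of the protein-coding genes and rose 4.18-fold (log2 difference 2.03, SE 0.18, limma adjusted p = 0.0158). Smyd1 (chr6:71213940-71322233, minus strand), a histone methyltransferase known from heart and skeletal muscle, stood at 21.2 and 27.5 FPKM at P9 and between 64.8 and 79.2 in the 5 P12 libraries. This was a 2.88-fold rise (log2 difference 1.52, SE 0.16, limma adjusted p = 0.0384), with no overlap between the ages.

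Rgs5 and Kif5a rose as well, and both are also known from other cell types. Rgs5 (chr1:169655501-169695813, plus strand) encodes a regulator of G protein signalling and is a marker of pericytes. It stood at 6.47 and 5.53 FPKM at P9 and within 27.2 to 30.0 in all 5 P12 libraries, a 4.74-fold rise (log2 difference 2.07, SE 0.20, limma adjusted p = 0.0245). The mural list holds 10 genes, of which 4 were tested, and the other 3 tested did not share this pattern. Pdgfrb lay between 1.52 and 5.22 FPKM and Vtn between 0.0506 and 11.2, both with overlapping ages. Notch3 was lower at P12 (47.1 and 42.6 against 18.0 to 35.4). The mural list, Rgs5 included, summed to 57.7 and 58.0 FPKM at P9 and to 53.6 to 74.7 at P12. Notch3 was the largest part of this sum at P9. The part of mural cell RNA in the rise of Rgs5 was not tested. Kif5a (chr10:127225696-127263348, minus strand), a kinesin heavy chain of axonal transport that is abundant in neurons, stood at 2.83 and 2.86 FPKM at P9. At P12 it stood at 24.2, 21.8 and 17.5 in the KO and 15.6 and 17.8 in the WT libraries (6.81-fold, log2 difference 2.37, SE 0.26, limma adjusted p = 0.0384). Neuron markers also moved with age, as given below. P12 KO library 1 had both the highest neuron marker sum (443.5 FPKM) and the highest Kif5a, and the part of neuronal RNA in this rise was not tested.

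**Figure D1:**
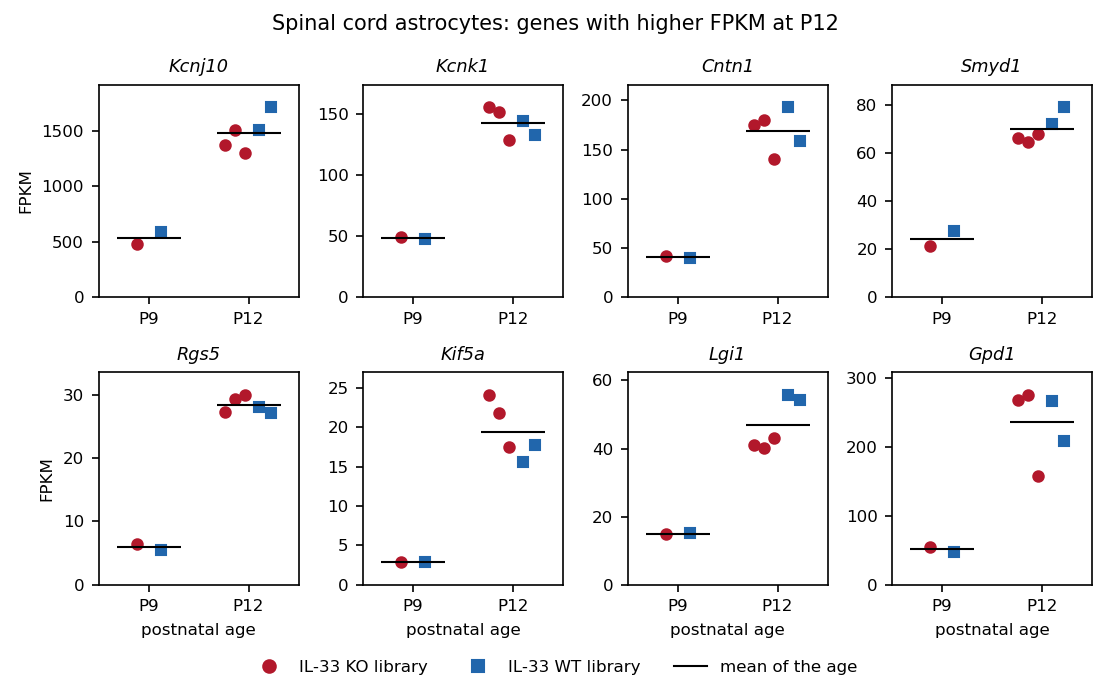
FPKM of 8 protein-coding genes in each of the 7 astrocyte libraries by age (circles KO, squares WT, line the mean of the age, axes from 0). Kcnj10, Kcnk1, Cntn1, Smyd1, Rgs5 and Kif5a passed an adjusted p of 0.05 and Lgi1 and Gpd1 did not, and in all 8 the 5 P12 libraries lie above both P9 libraries.

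Leaving out single P12 libraries moved the sizes of these 6 differences little and ended most of the calls. Without any single P12 library, Cntn1 lay between 1.97 and 2.09 log2 units, Kcnj10 between 1.47 and 1.54 and Kif5a between 2.31 and 2.43. The adjusted p then ranged from 0.0474 (Cntn1 without P12 KO library 3, the only one of these calls kept) to 0.216. After quantile normalisation Kcnj10 (log2 difference 1.34, limma adjusted p = 0.0709), Kcnk1 (1.45, 0.0578) and Smyd1 (1.45, 0.0575) no longer passed, and Cntn1, Kif5a and Rgs5 did. In the 4 libraries with Y-linked transcripts, Cntn1 differed by 2.15, Kcnj10 by 1.44, Kcnk1 by 1.61, Smyd1 by 1.48, Kif5a by 2.41 and Rgs5 by 2.04 log2 units; with 1 residual degree of freedom no gene passed. With Xist, a transcript of the inactive X chromosome, as a covariate, the adjusted p of the 6 genes ranged from 0.0524 to 0.17.

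Lgi1 and Gpd1 came next and did not pass. Lgi1, a secreted protein of synapses that is mutated in familial epilepsy, stood at 15.0 FPKM in both P9 libraries and at 40.0 to 55.8 at P12 (log2 difference 1.59, SE 0.19, limma adjusted p = 0.0596). Gpd1, a glycerol phosphate dehydrogenase that links glycolysis to lipid synthesis, stood at 54.9 and 47.3 at P9 and at 157 to 275 at P12 (log2 difference 2.15, SE 0.26, limma adjusted p = 0.0675).

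Around Kcnj10 and Kcnk1, other genes of potassium, water and endfoot handling lay mostly higher at P12. The list holds 19 genes, all tested. Of these, 2 were called higher and none lower, 10 had all P12 libraries above both P9 libraries (52.6%, against 8.27% of all genes), and 1 had all of them below. The median log2 difference of the list was 0.31, and 0.17 after quantile normalisation, which gives every library the same distribution of values. The gap junction proteins of astrocytes were among the 10. Gjb6 stood at 69.7 and 57.5 FPKM at P9 and at 130 to 179 at P12 (log2 difference 1.30, SE 0.20, limma adjusted p = 0.123), and Gja1 at 295 and 328 against 387 to 623. Atp1b2, a beta subunit of the sodium pump, stood at 2893 and 2870 FPKM at P9 and at 4342 to 6321 at P12 (log2 difference 0.84, and 0.30 after quantile normalisation). Aqp4, the water channel of endfeet, stood at 1135 and 1132 against 1206 to 1661, a smaller gap (log2 difference 0.33, SE 0.17, limma adjusted p = 0.645, and 0.12 after quantile normalisation). Agrn, a proteoglycan of the endfoot basal lamina, was the member below, at 91.3 and 99.3 FPKM at P9 and 34.1 to 63.4 at P12 (log2 difference −1.03, SE 0.25, adjusted p = 0.296).

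Genes that clear transmitters were higher at P12 in 6 of 14 members without overlap (42.9%) and lower in none, and no member was called. The median log2 difference was 0.32, and 0.18 after quantile normalisation. Slc7a10, an exchanger of small neutral amino acids including serine and glycine, stood at 371 and 399 FPKM at P9 and at 526 to 674 at P12 (log2 difference 0.61, SE 0.15, limma adjusted p = 0.308). Slc38a1, a glutamine transporter, stood at 5.54 and 5.85 against 10.1 to 19.1. Slc6a9, the glycine transporter of glia, stood at 644 and 633 against 765 to 1089. Glul, which makes glutamine from glutamate, stood at 960 and 976 against 1148 to 1490 (log2 difference 0.40, and 0.24 after quantile normalisation). By contrast Slc6a11, a GABA transporter, lay at 2174 to 2559 FPKM with overlapping ages (log2 difference −0.03, SE 0.14, and −0.34 after quantile normalisation).

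Among 21 neurotransmitter receptors of astrocytes, 7 were higher at P12 without overlap (33.3%, against 8.27% of all genes), 1 was lower and none was called. Ntsr2, a neurotensin receptor enriched in astrocytes, stood at 199 and 252 FPKM at P9 and at 354 to 479 at P12 (log2 difference 0.85, SE 0.18, limma adjusted p = 0.236). Grin2c, an NMDA receptor subunit, stood at 2.64 and 1.58 against 5.12 to 14.2. Adora1, an adenosine receptor, stood at 39.7 and 36.4 against 56.1 to 73.2. The member that was lower was Grm3, a metabotropic glutamate receptor, at 43.8 and 54.4 FPKM at P9 and 18.1 to 25.6 at P12 (log2 difference −1.09, SE 0.23, adjusted p = 0.24).

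Hormone-linked genes were mostly higher at P12. Thyroid hormone is converted to its active form in astrocytes by Dio2, and its receptors act on target genes such as Hr and Klf9. Of 8 tested members of the thyroid list, 6 were higher at P12 without overlap (75.0%, against 8.27% of all genes) and none was lower. The median log2 difference was 0.91 and no member was called. Dio2 stood at 19.1 and 22.5 FPKM at P9 and at 36.8 to 55.8 at P12 (log2 difference 1.14, SE 0.22, limma adjusted p = 0.192). Aldh1a1, a retinaldehyde dehydrogenase, stood at 46.0 and 52.4 against 104 to 179 (log2 difference 1.52, SE 0.22, adjusted p = 0.105). Hr, a corepressor, stood at 1.04 and 1.14 against 2.12 to 7.51, and Thrb, a thyroid hormone receptor, at 9.53 and 10.01 against 13.2 to 23.9. Thra, another thyroid hormone receptor, overlapped between the ages.

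Of 17 tested genes known to respond to glucocorticoids, 7 were higher at P12 without overlap (41.2%) and 1 was lower, with a median log2 difference of 0.51. The metallothionein Mt1 stood at 943 and 872 FPKM at P9 and at 1359 to 2252 at P12 (log2 difference 0.91, SE 0.19, limma adjusted p = 0.245). Sult1a1, a sulfotransferase, stood at 1.66 and 2.02 against 3.51 to 13.9. Fkbp5, a standard glucocorticoid target, did not follow, with 1.16 and 2.203 FPKM at P9 and 0.0146 to 2.12 at P12. Klf9 stands in both hormone lists.

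**Figure D2:**
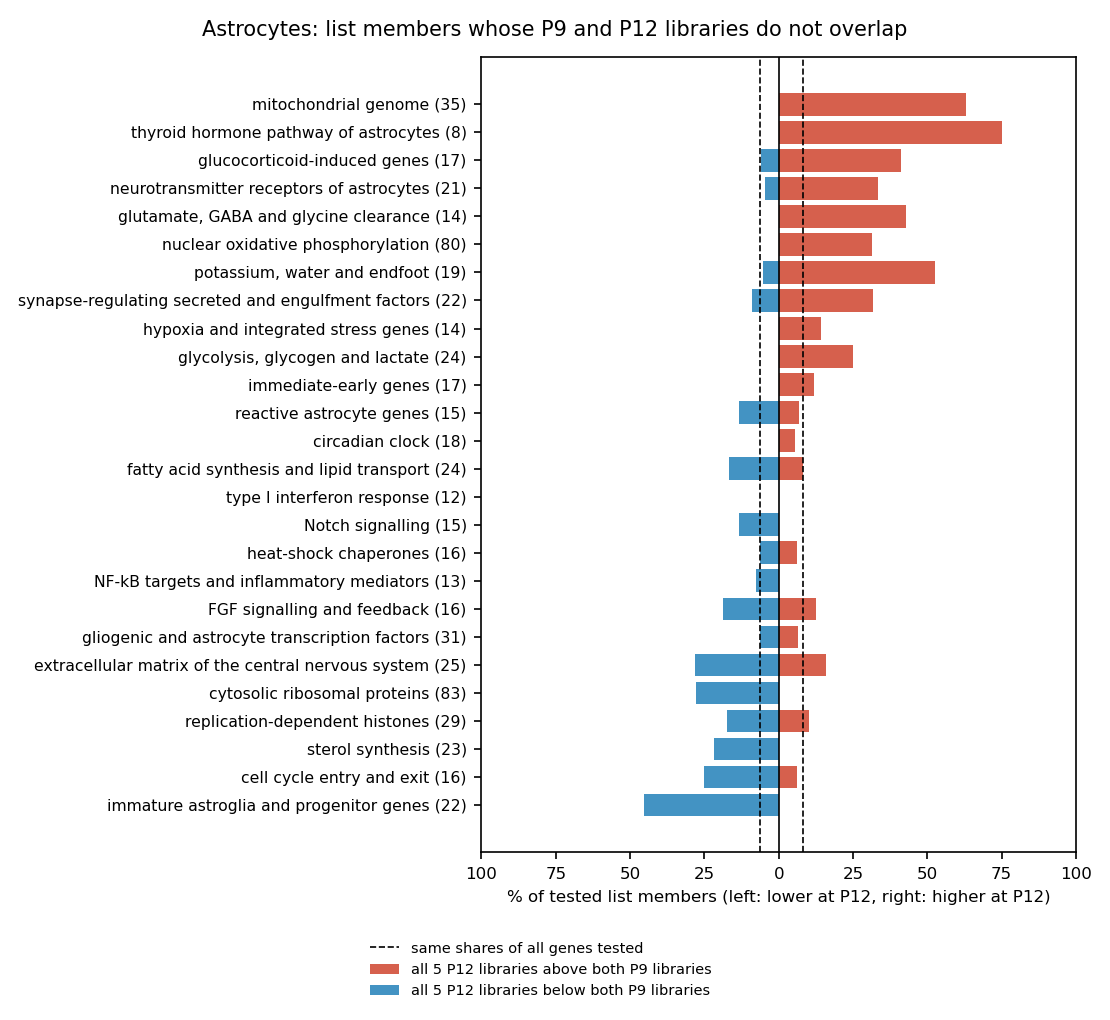
Share of the tested members of each gene list (number in brackets) whose 5 P12 libraries all lie above (right) or below (left) both P9 libraries, ordered by the list's median log2 difference. Dashed lines mark the shares of all genes tested, 8.27% and 6.44%. The immature list reaches 45.5% to the left and the thyroid list 75.0% to the right, and mitosis and S phase are not drawn because members passed the filter through P9 alone.

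Genes of energy metabolism were higher at P12 or overlapped, and none was called. Of 24 genes of glycolysis, glycogen and lactate, 6 were higher without overlap and none lower. Pygm, the glycogen phosphorylase expressed by astrocytes, stood at 164 and 173 FPKM at P9 and at 319 to 505 at P12 (log2 difference 1.20, SE 0.21, limma adjusted p = 0.166). Aldoc, an aldolase that marks astrocytes, stood at 2194 and 2405 against 3036 to 3312, but its log2 difference of 0.48 was 0.01 after quantile normalisation. Of 80 nuclear genes of oxidative phosphorylation, 25 were higher without overlap (31.3%) and none lower, with a median log2 difference of 0.31, and 0.18 after quantile normalisation. Examples were Cox7a2, a subunit of cytochrome oxidase (150 and 180 against 219 to 316 FPKM), and Sdhc, a subunit of succinate dehydrogenase (161 and 211 against 268 to 374). The glycolysis list had a median of 0.26 over all libraries, 0.13 after quantile normalisation, and 0.47 log2 units among KO and −0.02 among WT libraries, and the difference between the genotypes was not tested.

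The 35 tested genes of the mitochondrial genome had a larger median, 1.08, and 22 were higher at P12 without overlap (62.9%), 11 of them among the 13 that encode proteins. Cytochrome oxidase subunit mt-Co3 stood at 7454 and 6033 FPKM at P9 and at 13930 to 22680 at P12 (log2 difference 1.28, SE 0.24, limma adjusted p = 0.189, and 0.43 after quantile normalisation). The size of this list's difference moved with the scaling and with single libraries. Its median was 0.48 after quantile normalisation, 0.57 among KO and 1.64 among WT libraries. The highest values were in P12 WT library 2, the shallowest by the rough depth estimate. mt-Co1 was listed at 0 in 6 of the 7 libraries.

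**Figure D3:**
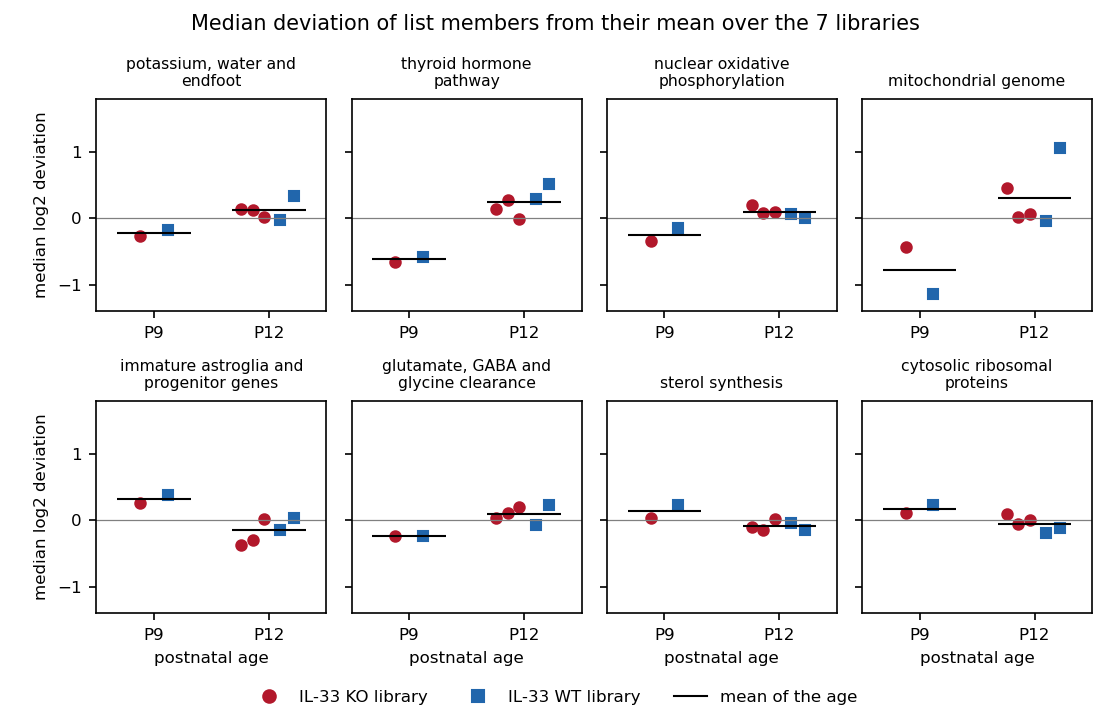
Median over the tested members of 8 gene lists of the log2(FPKM + 1) deviation from each gene's mean over the 7 libraries, by age (circles KO, squares WT, line the mean of the age). For the mitochondrial genome P12 WT library 2 stands apart at 1.06 and the P9 libraries lie at −0.43 and −1.14.

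Of 22 tested secreted and engulfment factors that act on synapses, 7 were higher at P12 without overlap (31.8%) and 2 lower (9.09%, against 6.44% of all genes), and none was called. Gas6, a ligand of the engulfment receptors Mertk and Axl, stood at 11.8 and 14.4 FPKM at P9 and at 25.02 to 30.8 at P12 (log2 difference 1.06, SE 0.21, limma adjusted p = 0.207). The engulfment receptors Megf10 (7.39 and 8.497 against 12.2 to 20.4) and Mertk (9.71 and 10.5 against 11.04 to 28.2) were higher too, while Axl overlapped. Mfge8, a bridging protein for engulfment through integrins, lay the other way, at 68.0 and 89.0 FPKM at P9 and 20.03 to 46.8 at P12 (log2 difference −1.35, SE 0.34, adjusted p = 0.306). Sparc and Sparcl1, matricellular proteins with opposed known effects on synapse formation, moved with the scaling. Sparc stood at 2662 and 2822 against 3453 to 5217 FPKM (log2 difference 0.71, and 0.23 after quantile normalisation). Sparcl1 stood at 5025 and 4592 against 5116 to 6460 (log2 difference 0.27, turned to −0.36 by quantile normalisation).

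Of 25 tested matrix genes of the central nervous system, 7 were lower at P12 without overlap (28.0%) and 4 higher (16.0%), and none was called. Ncan, a chondroitin sulfate proteoglycan, stood at 1878 and 1687 FPKM at P9 and at 1028 to 1229 at P12 (log2 difference −0.71, SE 0.14, limma adjusted p = 0.215). Tnc, a tenascin of the immature matrix, stood at 15.2 and 14.8 against 4.47 to 8.10 (log2 difference −1.26, SE 0.30, adjusted p = 0.29). Vcan, another proteoglycan, stood at 58.6 and 58.8 against 8.29 to 41.5. Bcan, a proteoglycan of the mature matrix, lay in the opposite order, at 233 and 285 against 355 to 382 FPKM (log2 difference 0.53, and 0.34 after quantile normalisation).

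Genes of immature astroglia and progenitors were lower at P12 or overlapped, and none was called. Of 22 tested, 10 were lower without overlap (45.5%, against 6.44% of all genes) and none higher, with a median log2 difference of −0.41. With the members under the filter included, 13 of 30 were lower without overlap and none higher, against 5.82% and 5.68% of all genes detected in a library. Fabp7, a fatty acid binding protein of radial glia and young astrocytes, was among the most abundant, at 3352 and 3630 FPKM at P9 and 1145 to 1734 at P12 (log2 difference −1.21, SE 0.18, limma adjusted p = 0.108). Vim, an intermediate filament protein, stood at 145 and 114 against 25.3 to 80.9, and Sox4, a transcription factor of neural progenitors, at 16.7 and 18.2 against 6.93 to 9.40. Nes, Hopx and Hes5 of the same list overlapped between the ages. Among 31 gliogenic transcription factors, 2 were higher and 2 lower without overlap (6.45% each), which is near the background. Id2, an inhibitor of helix-loop-helix factors, stood at 141 and 134 FPKM against 218 to 302.

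The genes lower at P12 with the smallest p outside these lists also did not pass. Gsg1l, an auxiliary subunit of AMPA receptors, stood at 32.5 and 29.2 FPKM at P9 and at 4.67 to 7.90 at P12, 4.96-fold lower (log2 difference −2.13, SE 0.27, limma adjusted p = 0.0781). Acot1, a thioesterase of fatty acyl-CoA, stood at 82.1 and 74.4 against 28.6 to 41.0, and Cdo1, a cysteine dioxygenase on the way to taurine, at 35.5 and 35.3 against 4.48 to 11.9. Sema6a, a transmembrane semaphorin of axon guidance, stood at 204 and 137 against 60.1 to 82.7. In each of these genes the ages did not overlap.

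**Figure D4:**
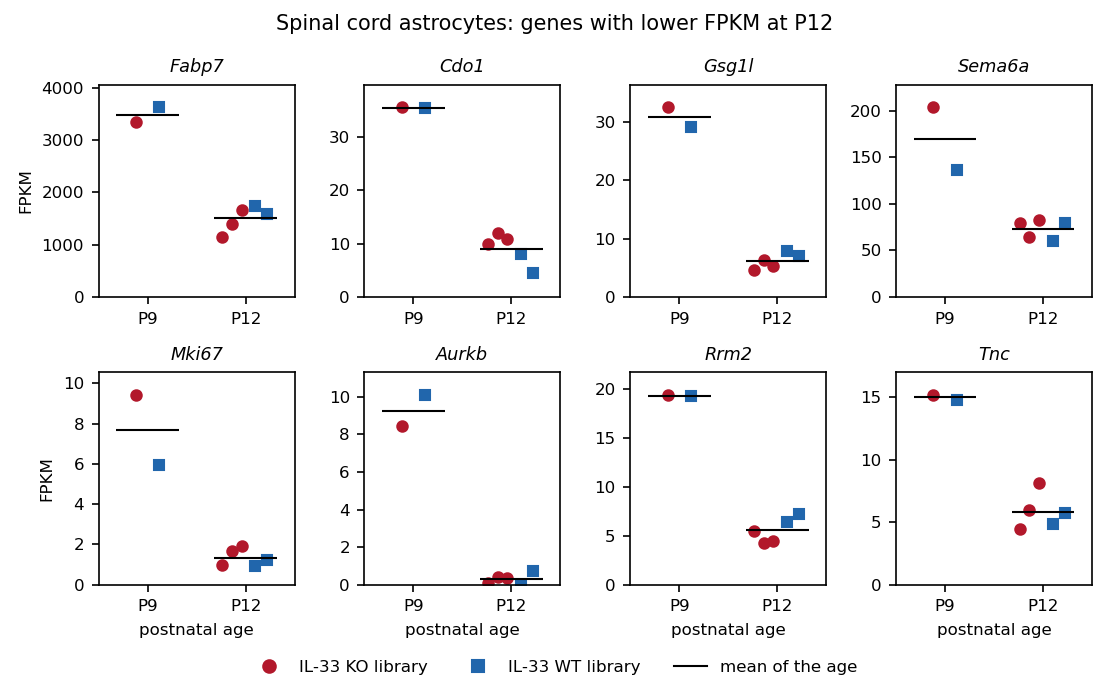
FPKM of 8 genes in each of the 7 astrocyte libraries by age (circles KO, squares WT, line the mean of the age, axes from 0). None of the 8 passed an adjusted p of 0.05, and in each the 5 P12 libraries lie below both P9 libraries. Aurkb had a P12 mean under 1 FPKM and passed the filter through its P9 values.

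Genes of mitosis were lower at P12 or overlapped, and none was called. Of 40 members, 30 were lower at P12 without overlap when no filter was set and none was higher, against 5.82% and 5.68% of all 23110 genes detected in a library. With the filter, 31 were tested. Of these, 13 had a P12 mean under 1 FPKM and passed through their P9 values, so the tested members are given no count or median of their own. Mki67, a protein of dividing nuclei, stood at 9.43 and 5.93 FPKM at P9 and at 0.959, 1.65, 1.90, 0.931 and 1.23 at P12 (log2 difference −1.92, SE 0.38, limma adjusted p = 0.208). Aurkb, a kinase of chromosome segregation, stood at 8.44 and 10.1 against 0 to 0.721 (log2 difference −2.98, SE 0.44, adjusted p = 0.108). Ect2, which drives cytokinesis, stood at 4.74 and 5.39 against 0 to 0.689, and Cenpf, a kinetochore protein, at 7.14 and 4.58 against 0.504 to 1.37. Birc5, Anln and Cenpa, also genes of dividing cells, overlapped between the ages (log2 differences 0.25, 0.04 and 0.01). Aurkb, Ect2 and Cenpf are among the 13 members that passed through their P9 values, so the filter favoured genes lower at P12 there. In bulk libraries, fewer dividing cells and less of these RNAs per cell cannot be told apart. Which cells of the sort divided was not measured, and oligodendrocyte precursor markers, which belong to another dividing cell type of the cord, summed to 689.8 and 636.5 FPKM at P9 and 524 to 740 at P12.

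Many mitotic promoters are known to carry a CCAAT box, bound by the factor NF-Y, and a cell cycle homology region (CHR). The CHR is bound by complexes with a MuvB core, of which DREAM silences these genes in resting cells. Both motifs were looked for on both strands of the RefSeq promoters on GRCm38.p6, from 250 bases before to 50 bases after the gene start, as CCAAT and as TTTGAA or TTTAAA. A promoter was found for 34 of the 40 mitosis genes, and 24 of these (70.6%) held both motifs. Both were held by 10.9% of all 27025 promoters and by 4 of 26 promoters of S phase genes (15.4%). The CHR alone was held by 29 of the 34 mitosis promoters (85.3%), by 7 of the 26 S phase promoters (26.9%) and by 27.8% of all. These matches are letters only and show no binding. The 250 bases before the start of 3 tested mitosis genes of small p that held both motifs there are printed to show the arrangement, 5′ to 3′ on the gene's strand, with matches on either strand in capitals.
Mki67, chr7:135716380-135716629, minus strand: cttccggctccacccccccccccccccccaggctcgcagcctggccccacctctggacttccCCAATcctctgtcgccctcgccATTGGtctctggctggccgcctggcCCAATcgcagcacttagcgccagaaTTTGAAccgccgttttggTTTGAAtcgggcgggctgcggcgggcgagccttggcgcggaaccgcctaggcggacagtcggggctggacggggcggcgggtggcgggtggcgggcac
Ect2, chr3:27153879-27154128, minus strand: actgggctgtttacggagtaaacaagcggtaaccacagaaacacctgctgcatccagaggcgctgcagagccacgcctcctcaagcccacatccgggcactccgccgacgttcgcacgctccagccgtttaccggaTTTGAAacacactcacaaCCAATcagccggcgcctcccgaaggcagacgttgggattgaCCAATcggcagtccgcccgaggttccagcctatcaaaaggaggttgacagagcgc
Cenpf, chr1:189688087-189688336, minus strand: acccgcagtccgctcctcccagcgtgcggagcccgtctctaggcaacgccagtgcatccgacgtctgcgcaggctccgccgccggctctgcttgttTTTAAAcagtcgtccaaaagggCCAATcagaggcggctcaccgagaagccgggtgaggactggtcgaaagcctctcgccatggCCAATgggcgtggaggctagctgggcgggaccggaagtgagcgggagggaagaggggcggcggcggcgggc
Mki67 holds 3 CCAAT matches and 2 CHR matches in this stretch, and Ect2 and Cenpf hold 2 CCAAT matches and 1 CHR match each.

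Genes of S phase and DNA replication were also lower at P12 or overlapped. Of all 30 members, 12 were lower at P12 without overlap when no filter was set and none was higher. The shares of all 23110 genes detected in a library were 5.82% lower and 5.68% higher. Of the 22 tested, 4 had a P12 mean under 1 FPKM and passed through their P9 values, Mcm6 among them. Another 2 had a P9 mean under 1 FPKM and passed through their P12 values. Rrm2, the ribonucleotide reductase subunit made in S phase, stood at 19.4 and 19.2 FPKM at P9 and at 4.29 to 7.17 at P12 (log2 difference −1.62, SE 0.27, limma adjusted p = 0.149). Mcm6, a subunit of the replicative helicase, stood at 3.43 and 2.71 against 0.299 to 1.59. Pcna, the sliding clamp of replication, stood at 27.6 and 23.2 against 8.04 to 22.3. Ccne1 and Slbp, also genes of dividing cells, overlapped between the ages (log2 differences 0.85 and 0.12). Among genes of cell cycle entry and exit, Cdkn1a, an inhibitor of cyclin-dependent kinases, was higher at P12, at 32.5 and 18.4 FPKM against 48.1 to 154. Cdkn1c, another such inhibitor, was lower, at 9.33 and 12.5 against 2.52 to 5.32. Neither passed the test (limma adjusted p = 0.373 and 0.395).

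Direction within each genotype was read from differences that share no library, the P9 KO against the 3 P12 KO libraries and the P9 WT against the 2 P12 WT libraries. Of the 11554 protein-coding genes, 30.2% were higher at P12 in both genotypes and 27.2% lower in both. Across these genes Pearson's r between the 2 differences was 0.22 and Spearman's rho 0.21, and over all 13397 genes they were 0.13 and 0.18. Genes are not independent replicates, and all P9 values share an age and any day of sorting. The immature list had close medians, −0.47 in KO and −0.49 in WT, and the thyroid list had 0.67 and 1.07.

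Sterol synthesis leaned low, with 5 of 23 tested genes lower at P12 without overlap (21.7%, against 6.44% of all genes) and none higher. Its median log2 difference was −0.25. Lss, which closes the sterol ring, stood at 40.2 and 41.6 FPKM at P9 and at 19.6 to 28.6 at P12 (limma adjusted p = 0.295), and Hmgcs1, an early enzyme of the pathway, at 298 and 334 against 206 to 282. Of 83 cytosolic ribosomal protein genes, 23 were lower without overlap (27.7%, against 6.44% of all genes) and none higher. Their median was small, −0.22, and −0.34 after quantile normalisation. Other lists held few members without overlap, against 8.27% of all genes higher and 6.44% lower. These were NF-kB targets (13 tested, none higher and 1 lower), type I interferon response genes (12 tested, none in either direction) and circadian clock genes (18 tested, 1 higher). Reactive astrocyte genes (15 tested, 1 higher) and Notch signalling genes (15 tested, none higher) each had 2 lower (13.3%). With members under the filter included, 4 of 30 reactive astrocyte genes were lower and 1 higher, against 5.82% and 5.68% of all genes detected in a library. Of 16 tested heat-shock chaperones, 1 was higher and 1 lower without overlap (6.25% each), which is near the background. Cryab, a small heat-shock protein, was the higher one, at 61.9 and 77.6 FPKM at P9 and 126 to 210 at P12 (log2 difference 1.20, SE 0.19, limma adjusted p = 0.128). Of 17 tested immediate-early genes, 2 were higher without overlap (11.8%) and none lower. Gadd45g, a stress gene, was among the 2, at 12.5 and 18.4 against 34.4 to 59.8. Of 16 tested genes of the FGF list, 2 were higher (12.5%) and 3 lower (18.75%) without overlap, with a median log2 difference of −0.03. The 2 higher ones were Fgf1, a growth factor of the family, at 51.4 and 83.4 FPKM against 117 to 140, and Fgfr3, the receptor typical of astrocytes, at 144 and 133 against 162 to 205.

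Markers of other cell types differed in how they lay by age. Markers of microglia summed to 12.5 and 31.9 FPKM at P9 and to 63.7 to 93.7 at P12. Of 14 members, 8 were higher without overlap (57.1%, against 8.27% of all genes tested) and none lower. However, 8 of the 14 had a P9 mean under 1 FPKM and passed the filter through their P12 values. With no filter set the count was also 8 of 14, against 5.68% of all genes detected in a library. In the sorted microglia of the series the same list summed to 12950 to 15240 FPKM, and the median astrocyte library held 0.499% of the median of those. C1qc, a complement gene of microglia, stood at 0.160 and 2.94 against 7.63 to 17.3 FPKM. Markers of neurons summed to 96.2 and 58.0 FPKM at P9 and to 443.5, 98.1, 187, 136 and 132 at P12, with P12 KO library 1 far above the rest. Snap25, a synaptic fusion protein, stood at 31.0 and 13.2 against 34.5 to 106 FPKM, and Rbfox3, a nuclear protein of neurons, overlapped at 1.26 to 10.2. Of 14 neuron markers, 4 were higher without overlap when no filter was set and none lower, against 5.68% and 5.82% of all genes detected. Haemoglobin genes and other erythroid markers summed to 8.44 and 15.0 FPKM at P9 and to 27.6 to 148 at P12. The part of neuronal, microglial, erythroid or mural cell RNA in the differences given here was not tested.

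Markers of myelinating oligodendrocytes were abundant in all 7 libraries, with sums of 4692 to 8335 FPKM, and their median log2 difference was −0.34 with 1 of 14 higher and 1 lower without overlap. Mbp, a myelin protein whose RNA travels in processes, was the higher one (3331 and 2654 against 3944 to 5997 FPKM, log2 difference 0.59, and 0.07 after quantile normalisation). Mag, an adhesion protein of myelin, was the lower one, at 103 and 87.0 against 20.7 to 66.0. Of the 14 astrocyte markers, 10 were higher at P12 without overlap (71.4%, against 8.27% of all genes) and none lower. Their median log2 difference was 0.44, and 0.24 after quantile normalisation. Gfap, the filament protein of astrocytes, stood at 197 and 283 against 284 to 423 FPKM, and S100b, a calcium-binding protein, at 323 and 364 against 459 to 560. Sox9, a transcription factor of astrocytes, overlapped between the ages.

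**Figure D5:**
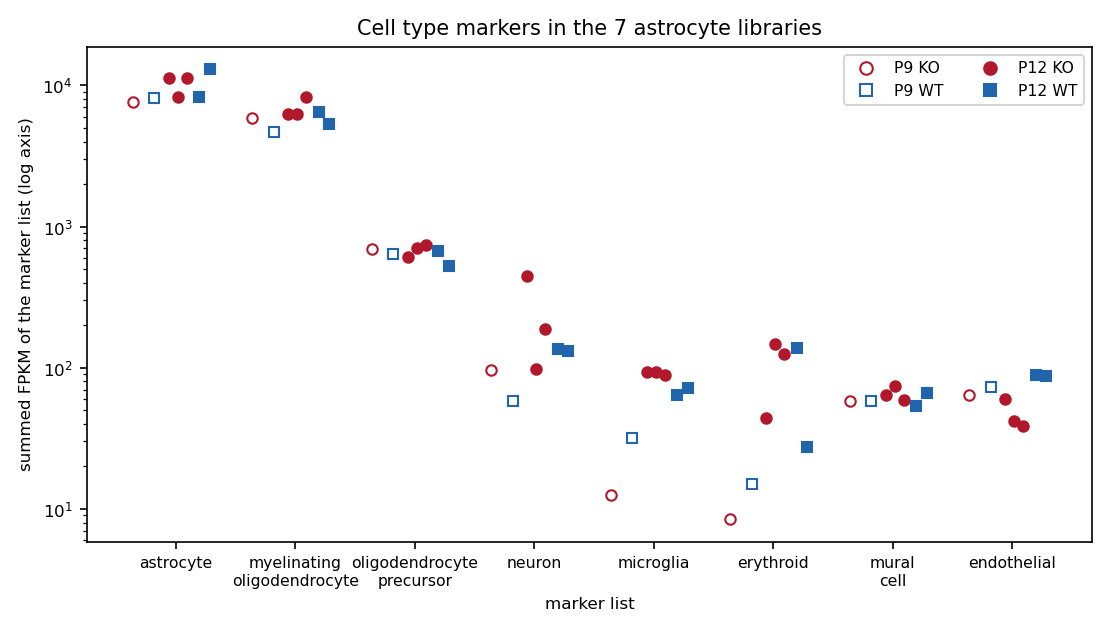
Summed FPKM of 8 cell type marker lists in each of the 7 astrocyte libraries (log axis, open symbols P9, filled symbols P12, circles KO, squares WT). Microglia markers sum to 12.5 and 31.9 at P9 and to at least 63.7 at P12, while the astrocyte list is at 7570 or more in every library.

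The other 7 of the 13 called genes do not encode proteins or have no name in the annotation used here, and 6 of them were lower at P12. They are 3 microRNA genes, 1 small nuclear RNA gene, 1 other small RNA gene and 2 identifiers without a match. Of these, 6 were listed at 0 in every library of 1 age, and the other was at 0 in 4 P12 libraries and at a value too small to be a read in P12 KO library 3. Whether these zeros are failed estimates was not tested. Mir7052 (chr7:44470347-44470411, plus strand, inside Josd2) had the smallest p of the whole comparison, with 233.5 and 250.1 FPKM at P9 and 0 in all 5 P12 libraries (limma adjusted p = 0.00044). Josd2, the gene around it, overlapped between the ages, at 27.7 and 28.3 FPKM at P9 and 26.7 to 38.5 at P12. The gene model is 65 bases long and the labels name no small RNA library, so these values do not give the level of a mature microRNA. For reference, its mature arms in RefSeq are printed with the seed, bases 2 to 8, in capitals.
mmu-miR-7052-5p: uGUGGGAAgguggaggccuuu
mmu-miR-7052-3p: gCUCUGCCcccuccuucccag

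The difference between P9 and P12 was compared between genotypes with an age by genotype term. It was called in 143 genes (1.07%), and 562 had an unadjusted p under 0.05. Of the 143 genes, 136 were listed at 0 in at least 3 of the 7 libraries, 135 were at 0 in a P9 library and 4 were protein-coding. The P9 group holds 1 library of each genotype, so this term rests on 1 P9 library per genotype. The KO minus WT term of the main fit, at matched age, was called in 3 genes (0.0224%), one of which was Il33 (KO minus WT log2 difference −5.55, limma adjusted p = 0.0129).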

How the data were processed

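Per the labels' protocols, TRIZOL served to take RNA from sorted cells, DNase followed, and NuGEN RNA-Seq V2 reagents gave the libraries. The authors deposited FPKM for 39171 genes. TopHat2 2.0.11, Bowtie2 2.2.3, Cufflinks, Cuffnorm and HTSeq 0.6.1p1 were among the tools used with build GRCm38, per the submitters' processing notes. How libraries were scaled, and whether strand was used, is not given in the sources used here. Of the identifiers, 37691 (96.2%) matched GENCODE M21, the source of symbols, types and coordinates.

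The age term was estimated on log2(FPKM + 1) by limma 3.58.1 (R 4.3.3; two-sided, moderated with a mean trend), beside a genotype term. Benjamini-Hochberg adjustment ran over all 13397 genes with a mean of at least 1 FPKM, and 4 residual degrees of freedom remained. Log2 differences are P12 minus P9 on this scale, which understates changes of low genes. Folds are ratios of mean FPKM. A count model does not suit FPKM and was left out, and absolute depth is unknown. Tested on simulated data, the fit made 7.29 false calls per 100 calls.

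The age comparison, the 42 gene lists and the rule for named genes were chosen with earlier results of these data known. The rule takes Il33 and 4 astrocyte markers, up to 12 called protein-coding genes per direction (filled to 8 by smallest p, with at least 2 FPKM and no overlap between ages), called members of each list or else its 2 members of smallest p, the 2 most abundant markers of each cell type, and 3 genes for the age by genotype term. Other list members are examples chosen after their values were seen. A predicted gene that met the rule is counted, not named. Lists are described by counts and medians only. Exons of Aldh1l1, Slc1a2, Kcnk1, Lgi1, Gpd1, Slc7a10, Slc6a9, Glul, Adora1, Grin2c, Dio2, Thra, Gas6, Sult1a1, Tnc, Sox4, Lss, Hmgcs1, Cdkn1a, Cdkn1c, Cryab, Fgfr3, Notch3, Hopx, Hes5, Nefl, Vcam1, Nckap5l, Xist and mitochondrial genes overlap another annotated gene, so their values are uncertain. Alternatives were another pseudocount, other filters and scalings, other model terms, subsets of libraries, and leaving out each library. Some list members are not reported by name here.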

Additional observations from a re-analysis of the deposited data

Results flagged for a closer look

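Among 108 named genes and marker sums, 7 had 1 P12 library far from the other 4 (gap over range above 0.71, which chance gives in about 1 of 20 groups). Neuron markers summed to 443.5 FPKM in P12 KO library 1 and to 98.1 to 187 in the other P12 libraries, and Nefl, a neurofilament gene, stood at 93.1 FPKM there against 22.7 to 30.3. P12 WT library 1 had 72.3 FPKM of Vcam1 against 98.4 to 106 elsewhere at P12, and 28.6 FPKM of Lss against 19.6 to 22.1. P12 KO library 2 had 59.8 FPKM of Gadd45g against 34.4 to 39.8 and 3.00 FPKM of the histone gene Hist1h2bf against 0.221 to 0.919. P12 WT library 2 had 1229 FPKM of Ncan against 1028 to 1077. In Gadd45g, Vcam1, Lss, Nefl, Hist1h2bf and Ncan the far library lay on the same side of both P9 libraries as the other P12 libraries.

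Limma's age by genotype term was called in 143 genes, of which 135 were listed at 0 in a P9 library, and it rests on 1 P9 library per genotype. Among the protein-coding ones with a mean of at least 2 FPKM, mt-Co1 was listed at 0 in all libraries except the P9 WT library (15630 FPKM), and its fitted KO minus WT value of 13.93 log2 units (limma adjusted p = 0.0122) is no fold, since these zeros may be failed estimates. Nckap5l stood at 14.6 FPKM in the P9 KO library, 3.30 to 4.83 in the P12 KO, 1.03 in the P9 WT and 29.7 and 31.4 in the P12 WT libraries (KO minus WT −5.55, limma adjusted p = 0.02). Smim20 stood at 24.2 FPKM in the P9 KO library, 37.7 to 48.0 in the P12 KO, 89.5 in the P9 WT and 20.4 and 17.8 in the P12 WT libraries (KO minus WT 2.93, limma adjusted p = 0.048).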

How the results depend on the processing

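Main counts of genes that differed between the ages were 13 in all, 7 higher and 6 lower at P12. They became 7 (1 lower) with a pseudocount of 0.1, 35 (26 lower) without a filter and 8 (1 lower) with a mean of at least 5 FPKM. After quantile normalisation they became 10 (4 higher, the rest lower). They became 25 (14 higher, 11 lower) without a genotype term, 64 (36 and 28, with 8 of the 13 shared) in a fit of all 13 libraries, 4 (1 and 3) with Xist as a covariate, 115 (1 and 114) in KO libraries, 0 in WT libraries (708 at an unadjusted limma p under 0.05), and 7 (0 lower) among protein-coding genes. In the 4 libraries with Y-linked transcripts, an alternative chosen after seeing the data, the counts were 0 (946 unadjusted). Leaving out each library gave 3 to 93 calls, 0 to 11 higher and 3 to 88 lower. There were 93 calls without P9 KO (82 lower) and 93 without P9 WT (88 lower), where the age term rests on 1 P9 library. There were 7, 5, 8, 4 and 3 without P12 KO 1, 2 and 3 and P12 WT 1 and 2. The cause was not tested.

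In the fit of all 13 libraries, the microglia add to the estimate of spread, and Gsg1l (adjusted p = 0.00601), Aurkb (0.00111), Lgi1 (0.0109), Mki67 (0.0136), Rrm2 (0.0244), Cdo1 (0.0338), Gas6 (0.028), Dio2 (0.0495), C1qc (0.028) and Gadd45g (0.029) passed beside Cntn1, Kcnj10 and Rgs5, while Kcnk1 (0.125), Smyd1 (0.0965) and Kif5a (0.0638) did not. That fit used the genes of the main filter, which Aurkb had passed through its P9 values. No named gene that was called reversed its direction under any of the 21 alternatives. List medians near 0 (FGF, Notch, NF-kB, fatty acid, heat shock and oligodendrocyte precursor lists) changed sign with the scaling, and quantile normalisation moved the differences of several abundant genes, as given beside them.

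With the title's replicate number as a replicate block, 0 genes were called by limma (909 unadjusted). Same-numbered KO and WT libraries correlated at −0.06 (number 1), 0.43 (number 2) and 0.21 (number 3) in their deviations. Numbers 2 and 3 each join a P9 with a P12 library. With no values of unlike-numbered libraries beside them, these correlations cannot show whether the numbers pair the libraries.

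The age by genotype count of 143 became 58 with a mean of at least 5 FPKM, and 153 to 218 without single P12 libraries (218 without P12 WT 2). The KO against WT count of 3 became 5 with a pseudocount of 0.1 and 0 to 3 without single libraries, 0 without P9 KO, P9 WT or P12 WT 1.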
